A study of Mus musculus with 8 samples.

Results

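The surface proteins by which B cells are recognised are described here across a mouse immunization time course. They are 10 genes: Ms4a1, Cd24a, Ly6d, Tnfrsf13c, Fcer2a, Ly86, Cd83, Cd40, Cr2 and Fcrl1. They were chosen by name, with earlier results of these data known, from the 12393 genes that the array annotation pairs with a probe set of their own. A probe set is a group of short array probes read out as a single value, and the 10 genes had 16 of them. Of these, 14, covering all 10 genes, passed the filter on low values and were tested. Lymph node cells of the inbred strain B10.BR were sorted by flow cytometry, and their RNA was read on Affymetrix mouse arrays. There were 3 arrays from naive mice, 3 from mice 7 days after immunization and 2 from mice 28 days after it. The labels name neither the immunogen, the sex or age of the mice nor the population that was sorted, and no genetic change is given for any group. Whether replicates are separate animals is not given either, so the spread behind each p-value is only that between arrays and may be technical.

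Mature B cells carry a set of surface receptors through which they sense antigen, complement, survival factors and T cell help. The BAFF receptor (Tnfrsf13c) keeps resting B cells alive, CD40 receives the signal of helper T cells, and complement receptor 2 (Cr2) lowers the threshold for activation when antigen is coated with complement. In a lymph node these cells fill the follicles beside the T cell zone. Several of the genes are also used elsewhere: Cr2 and Fcer2a by follicular dendritic cells, Cd40 and Cd83 by dendritic cells, Cd83 by activated T cells and Cd24a by many immature cells.

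Each value is a ratio whose divisor the sources used here do not state. In 47.9% of probe sets the middle value over the 8 arrays is 1, and in the rest it is lower, so division by the probe set's own median is an inference that covers the former, while the divisor of the rest is unknown. Among the 16 probe sets here, the median ratio was below 1 for 2 of the tested ones, 0.78 for Cd24a 1416034_at and 0.860 for Fcer2a 1422122_at, and for both that were not tested. A ratio says nothing of a gene's level beside another gene. Group differences are given on the log2 scale, where 1 unit is a doubling, with the standard error (SE) and adjusted p of limma's moderated test over all 13042 tested probe sets. In sorted bulk RNA, more cells of a type and more RNA per cell cannot be told apart. Bacterial spike-in controls split the arrays into a low set (naive replicate 1 and the 3 day 7 arrays, median log2 ratios from -1.70 to -1.03) and a high set (naive replicates 2 and 3 and both day 28 arrays, from 0.64 to 1.41). Every day 7 array is in the low set and every day 28 array in the high set, so naive arrays alone link the sets.

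B cell surface genes were higher at day 28 than in naive cells. Of the 14 tested probe sets, 8 rose past the threshold (limma adjusted p under 0.05), 0 fell and 6 did not pass, against 0.268% of all tested probe sets called higher and 0.0537% called lower. The 8 belong to 8 of the 10 genes: Ms4a1, Cd24a, Ly6d, Tnfrsf13c, Fcer2a, Cd83, Cd40 and Cr2. Since the genes were chosen with earlier results of these data known, the gap to all probe sets is no independent support. In 13 of the 14, both day 28 arrays lay above all 3 naive arrays, compared with 7.76% of all tested probe sets (9.88% had both day 28 arrays below all naive arrays). The median log2 difference over the 10 genes, each taken as the mean of its tested probe sets, was 4.24, where the median over all 7825 genes was -0.05. Within the high spike-in set alone, day 28 minus naive replicates 2 and 3 gave a median of 3.96, with all 14 probe sets positive. Cd24a 1416034_at and Fcer2a 1422122_at passed the filter on low values only with their day 28 arrays, where they are high, so they had to differ and their part of these counts supports nothing. With the filter set on the naive and day 7 arrays alone, a choice made after seeing the data, 6 of 12 probe sets rose (0.169% of all 12403 then tested) and 11 of 12 did not overlap (7.08%). Cd40 then missed the threshold (limma adjusted p = 0.0565). The calls rested on few arrays. Their number was 7 when naive replicate 1 was left out and 6 when day 28 replicate 2 was. It fell to 2 when naive replicate 2 was left out, and to 4, 3 and 2 when day 7 replicate 1, replicate 2 or replicate 3 was. It was 0 when naive replicate 3 or day 28 replicate 1 was left out, where limma gave 13 and 12 probe sets higher by an unadjusted p under 0.05.

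**Figure D1:**
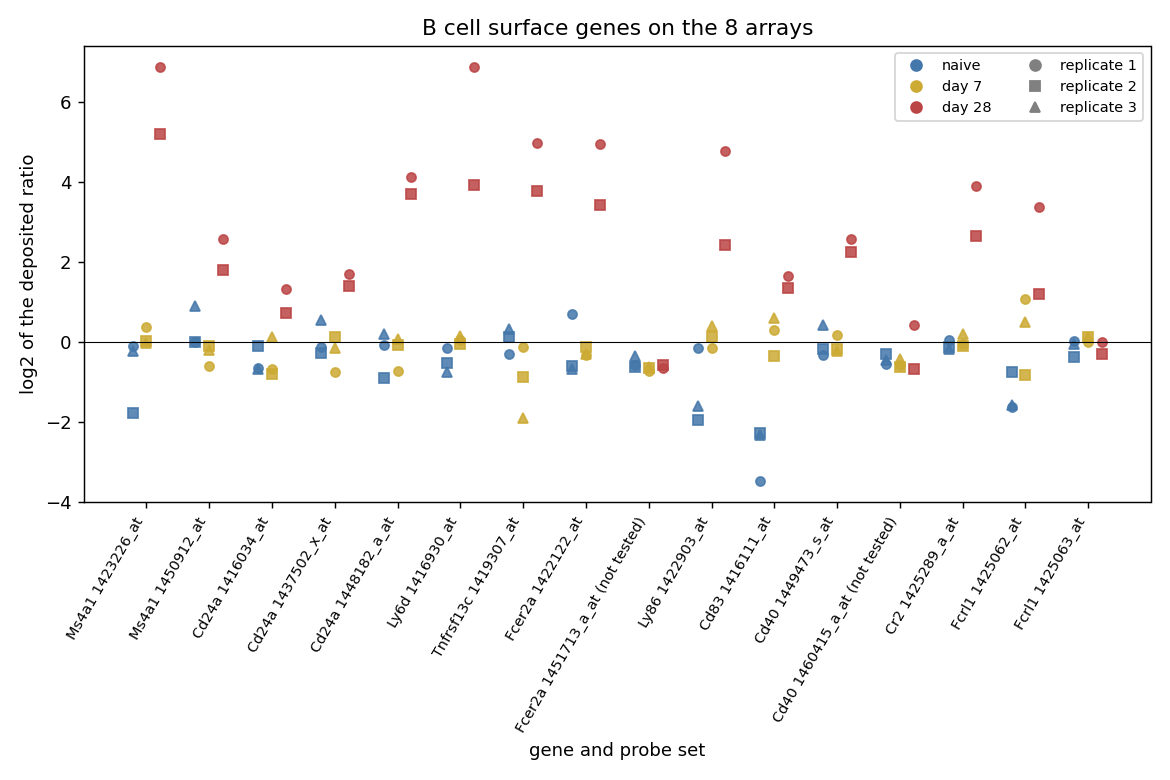
Log2 ratio (y axis) of each of the 16 probe sets of the 10 genes (x axis) on the 8 arrays; colour gives the group and marker shape the replicate. Both day 28 arrays lie above all naive and day 7 arrays in 13 of the 14 tested probe sets, the exception being Fcrl1 1425063_at.

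Ms4a1 encodes CD20, a membrane protein of B cells. Its probe set 1423226_at read 0.937, 0.293 and 0.846 in naive cells, 1.30, 1.01 and 0.985 at day 7, and 117 and 36.7 at day 28. The groups did not overlap at day 28, and 117 was the highest ratio of the whole table. Day 28 was 107-fold above naive (6.74 ± 0.64 on the log2 scale, from 2 and 3 arrays, limma adjusted p = 0.00936), and it was above day 7 by 5.91 ± 0.64 (adjusted p = 0.00929). The call against naive was lost in 2 of the 8 fits that leave out an array, those lacking naive replicate 3 (adjusted p = 0.0505) or day 28 replicate 1 (adjusted p = 0.0612). A second probe set, 1450912_at, read 0.995, 1.005 and 1.86 in naive cells, 0.655, 0.928 and 0.871 at day 7, and 5.95 and 3.47 at day 28. It stood above both other groups by less, with 1.88 ± 0.42 against naive (adjusted p = 0.228) and 2.49 ± 0.42 against day 7 (adjusted p = 0.0404).

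Ly6d encodes a lipid-anchored surface protein that marks commitment to the B lineage. It read 0.898, 0.693 and 0.594 in naive cells, 1.03, 0.965 and 1.10 at day 7, and 115.6 and 14.97 at day 28. The naive and day 7 arrays sat close together, and the day 28 arrays were far above them and far from each other. The rise over naive was 58.0-fold (5.86 ± 0.75, limma adjusted p = 0.0262), and 6 of the 8 fits that leave out an array lost the call, with adjusted p from 0.00904 to 0.140. Without day 28 replicate 1 the difference was 4.38, and without day 28 replicate 2 it was 7.33.

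Cd24a encodes a small sugar-coated surface protein of B cells and other immature or activated cells. Probe set 1448182_a_at read 0.943, 0.537 and 1.15 in naive cells, 0.606, 0.941 and 1.06 at day 7, and 17.3 and 13.0 at day 28. Both day 28 arrays were high and near each other, and the naive and day 7 arrays overlapped. This was a rise of 4.17 ± 0.43 over naive (limma adjusted p = 0.0128) and of 4.15 ± 0.43 over day 7 (adjusted p = 0.00801). The call against naive was lost when naive replicate 3 (adjusted p = 0.0505) or day 28 replicate 1 (adjusted p = 0.101) was left out. The other Cd24a probe sets had smaller differences from naive, 1.49 ± 0.40 for 1437502_x_at (adjusted p = 0.395) and a like size for 1416034_at (adjusted p = 0.409). In Affymetrix names, the ending x_at marks probes that can match other sequences too.

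Tnfrsf13c encodes the receptor for the survival factor BAFF. It read 0.812, 1.09 and 1.26 in naive cells, 0.914, 0.541 and 0.268 at day 7, and 31.0 and 13.5 at day 28. Day 28 was 19.8-fold above naive (4.31 ± 0.58, limma adjusted p = 0.0331) and 40.2-fold above day 7 (5.33 ± 0.58, adjusted p = 0.00929). The day 7 mean was the lowest of the 3 groups, but the day 7 and naive arrays overlapped and the difference of -1.02 ± 0.52 did not pass (adjusted p = 0.385). The call against naive was lost in 7 of the 8 fits that leave out an array, with adjusted p up to 0.214, and the difference was 3.71 when day 28 replicate 1 was left out.

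Fcer2a encodes CD23, the low-affinity receptor for immunoglobulin E. Probe set 1422122_at read 1.62, 0.660 and 0.623 in naive cells, 0.790, 0.908 and 0.813 at day 7, and 30.9 and 10.7 at day 28. Naive replicate 1 lay above naive replicates 2 and 3 and all day 7 arrays, and both day 28 arrays lay far above it. The difference was 4.38 ± 0.57 from naive (limma adjusted p = 0.0275) and 4.45 ± 0.57 from day 7 (adjusted p = 0.0171). With 1 array outside day 28 at or above a ratio of 1, this probe set entered the test through its high day 28 values, so these p-values are no independent support for a rise, and with the filter on the naive and day 7 arrays alone it was not tested. The call against naive was lost in 6 of the 8 fits that leave out an array (adjusted p up to 0.150), and the difference was 3.62 when day 28 replicate 1 was left out.

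Cr2 encodes complement receptor 2 (CD21) and, in mice, complement receptor 1 from the same gene. It read 1.03, 0.914 and 0.877 in naive cells, 0.969, 0.927 and 1.14 at day 7, and 14.9 and 6.28 at day 28. The 6 naive and day 7 arrays spanned a narrow band, and both day 28 arrays were well above it. The rise was 10.3-fold over naive (3.37 ± 0.40, limma adjusted p = 0.0196) and 9.61-fold over day 7 (3.26 ± 0.40, adjusted p = 0.0142). The call against naive was lost in 6 of the 8 fits that leave out an array (adjusted p up to 0.109), and the difference fell to 2.74 when day 28 replicate 1 was left out.

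The DNA just ahead of the start sites of these 3 receptor genes is shown because motifs of B cell regulators could be looked for there. They were not the genes with the highest day 28 ratios, which were Ms4a1 and Ly6d. RefSeq promoter entries (GRCm38.p6) matched 5 of the 10 genes with 7 start sites, and each sequence below is the 250 bases before a start site, on the gene's strand. Capitals mark matches, on either strand, to any of 4 motifs: the octamer ATGCAAAT bound by Oct factors, the PU box GAGGAA, the E box CAGGTG and the EBF core CCCNNGGG. Tnfrsf13c lies on the minus strand (chr15:82224381-82224630), Fcer2a, first of 3 listed start sites, on the minus strand (chr8:3694175-3694424), and Cr2 on the minus strand (chr1:195176720-195176969).
Tnfrsf13c: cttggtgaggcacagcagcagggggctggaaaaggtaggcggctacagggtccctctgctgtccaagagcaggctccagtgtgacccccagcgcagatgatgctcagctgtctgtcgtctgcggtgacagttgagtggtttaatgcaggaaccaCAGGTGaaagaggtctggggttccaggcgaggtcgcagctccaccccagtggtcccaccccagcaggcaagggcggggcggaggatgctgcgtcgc
Fcer2a: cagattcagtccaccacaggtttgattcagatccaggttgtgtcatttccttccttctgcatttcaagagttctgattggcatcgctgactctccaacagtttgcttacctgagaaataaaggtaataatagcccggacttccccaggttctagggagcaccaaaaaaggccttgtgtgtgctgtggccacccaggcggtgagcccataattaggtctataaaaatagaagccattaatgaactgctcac
Cr2: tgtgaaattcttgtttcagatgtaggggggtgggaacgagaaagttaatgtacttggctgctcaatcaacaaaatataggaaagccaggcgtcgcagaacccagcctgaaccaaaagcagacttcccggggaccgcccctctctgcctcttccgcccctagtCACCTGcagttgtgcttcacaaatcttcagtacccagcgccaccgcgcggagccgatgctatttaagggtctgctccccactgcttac
An E box stood 96 to 91 bases before the start site of Tnfrsf13c and, on the opposite strand, 88 to 83 bases before that of Cr2. The Fcer2a window shown held no match to the 4 motifs, while the window of its second start site held an E box at 2 places. Over the 7 windows, 3 held an E box, which 17.2% of all 32851 promoter windows of this length hold, and 1 (Fcrl1) held a PU box, against 23.3%. The octamer and the EBF core, found in 1.6% and 11.8% of all windows, were in 0 of the 7. A match is a description of letters and not evidence of binding.

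Cd40 encodes the receptor for CD40 ligand, the main contact signal from helper T cells. Probe set 1449473_s_at read 0.791, 0.880 and 1.34 in naive cells, 1.12, 0.878 and 0.856 at day 7, and 5.97 and 4.72 at day 28. The day 28 arrays agreed closely and stood above the other 6. The rise was 5.43-fold over naive (2.44 ± 0.35, limma adjusted p = 0.0435) and 5.62-fold over day 7 (2.49 ± 0.35, adjusted p = 0.0208). All 8 fits that leave out an array lost the call against naive (adjusted p from 0.0535 to 0.262), with differences from 2.27 to 2.67.

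Cd83 encodes an immunoglobulin-family surface protein that appears on activated B cells, dendritic cells and T cells and stabilises MHC class II at the surface. It read 0.0893, 0.208 and 0.198 in naive cells, 1.22, 0.779 and 1.52 at day 7, and 3.12 and 2.52 at day 28. All 3 groups were separate, with naive lowest and day 28 highest. The rise over naive was 7.33-fold at day 7 (2.87 ± 0.43, limma adjusted p = 0.0301) and 18.2-fold at day 28 (4.18 ± 0.48, adjusted p = 0.0161). The step from day 7 to day 28 was 1.31 ± 0.48 and did not pass (adjusted p = 0.229, 95% confidence interval from 0.20 to 2.41). In 7 of the 8 fits that leave out an array, the day 7 call was lost (adjusted p up to 0.169), and the exception was the fit without naive replicate 1. At day 28 it was lost in 5 of the 8.

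Ly86 encodes MD-1, a secreted protein that holds the Toll-like receptor relative RP105 at the B cell surface. It read 0.905, 0.258 and 0.328 in naive cells, 0.904, 1.09 and 1.32 at day 7, and 27.0 and 5.37 at day 28. Both day 28 arrays were above the rest, but replicate 1 was 5.03 times replicate 2, and naive replicate 1 lay with the day 7 arrays. Differences of 4.83 ± 0.76 from naive (limma adjusted p = 0.0710, 95% confidence interval from 3.07 to 6.59) and 3.46 ± 0.76 from day 7 (adjusted p = 0.0803) did not pass.

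Fcrl1 encodes an Fc receptor-like protein that modulates B cell receptor signals. Probe set 1425062_at read 0.323, 0.589 and 0.337 in naive cells, 2.12, 0.567 and 1.41 at day 7, and 10.3 and 2.31 at day 28. The day 28 arrays were the highest, although day 28 replicate 2 was barely above day 7 replicate 1. Its differences, 3.60 ± 0.76 from naive (limma adjusted p = 0.194) and 2.03 ± 0.76 from day 7 (adjusted p = 0.238), did not pass.

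**Figure D2:**
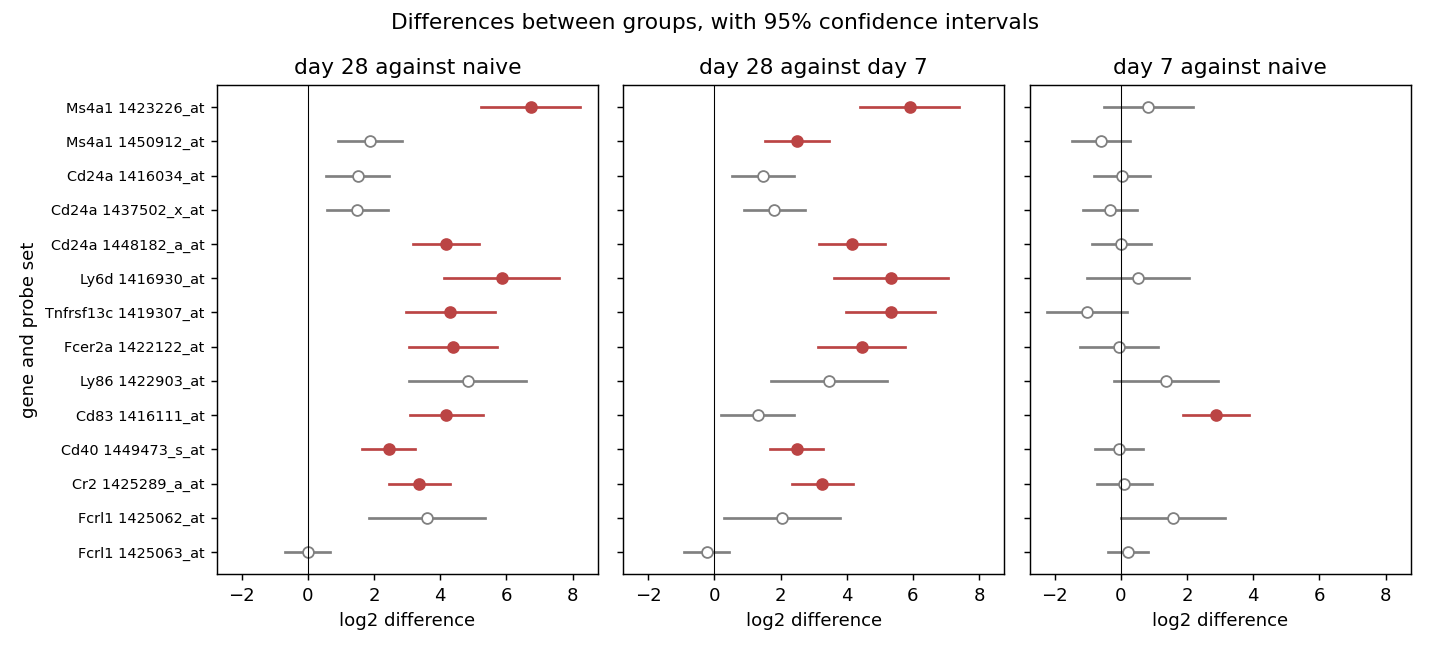
Log2 differences (x axis) of the 14 tested probe sets (y axis) in the 3 comparisons, with 95% confidence intervals from limma; filled red points have an adjusted p under 0.05. Red points number 8 in each day 28 comparison and 1, Cd83, at day 7 against naive.

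Day 28 was also above day 7. Of the 14 probe sets, 8 rose, 0 fell and 6 did not pass, against 0.422% of all tested probe sets called higher and 0.882% called lower. With the filter set on the naive and day 7 arrays alone, 7 of 12 rose (0.306% of all then tested). The 8 called with the main filter lie in 7 genes: Ms4a1 (both probe sets), Cd24a, Ly6d, Tnfrsf13c, Fcer2a, Cd40 and Cr2. Of these genes, Fcer2a was not tested with the filter on the naive and day 7 arrays. Both day 28 arrays lay above all 3 day 7 arrays in 13 of the 14, compared with 15.2% of all tested probe sets (29.7% had them below), and the median over the 10 genes was 3.36, against -0.18 over all genes. Ly6d was 40.3-fold higher (5.33 ± 0.75, limma adjusted p = 0.0211). Leaving out naive replicate 2 or day 7 replicate 1 gave 5 calls, day 7 replicate 2 gave 3, day 7 replicate 3 gave 2 and day 28 replicate 1 gave 1. When the spike-in split was added to the model it was 0, although limma gave 9 probe sets higher by an unadjusted p under 0.05 and the median was 3.95. The day 28 and naive comparison shares its day 28 arrays with this one, so their results are not independent.

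At day 7, of the 10 genes, Cd83 rose over naive, 9 did not pass and 0 fell. This is 1 of 14 probe sets, where 1.06% of all tested probe sets were called higher and 0.107% lower, or 1 of 10 genes, where 1.39% of all genes were called higher and 0.128% lower. The median over the 10 genes was 0.11, close to the 0.12 over all genes, and 6 of the 10 genes had a positive difference. All 3 day 7 arrays lay above all 3 naive arrays in 3 probe sets (Ms4a1 1423226_at, Ly6d and Cd83) and below them in 1 (Ms4a1 1450912_at), compared with 13.4% and 8.61% of all tested probe sets. The Ms4a1 probe sets thus had opposite signs, 0.83 ± 0.58 (limma adjusted p = 0.500) and -0.60 ± 0.37 (adjusted p = 0.461). For Cr2 the 95% confidence interval of the difference ran from -0.73 to 0.93, for Cd40 from -0.77 to 0.67 and for Ly6d from -1.03 to 2.07. Against naive replicate 1 alone, the naive array of the low spike-in set, the day 7 mean of Cd83 was higher by 3.66.

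Probe sets of a gene did not always move together. Fcer2a 1451713_a_at stayed between 0.599 and 0.783 on all 8 arrays and never reached the ratio of 1 that counts toward testing, while 1422122_at was high at day 28. Cd40 1460415_a_at, likewise not tested, ranged from 0.625 to 0.810 except for 1.35 on day 28 replicate 1. Fcrl1 1425063_at was tested and stayed between 0.764 and 1.09, with a day 28 difference from naive of -0.01 ± 0.29 (limma adjusted p = 0.998, 95% confidence interval from -0.69 to 0.67). Its correlation with the mean profile of the 10 genes over the 8 arrays was -0.11, where the other tested probe sets ran from 0.75 (Cd83) to 0.99 (Ly6d). That profile contains each of these probe sets, so high values are partly built in. Over the 91 pairs of tested probe sets the median correlation was 0.87. These correlations describe 8 shared arrays and carry no test.

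The day 28 arrays differed in how far the genes rose. All 14 tested probe sets were higher on replicate 1 than on replicate 2, with a median log2 gap of 0.99, whereas the gap was 0.02 over all 13042 tested probe sets (6715 higher on replicate 1). Ly6d had the widest gap, 7.72 times, followed by Ly86 with 5.03 times and Fcrl1 1425062_at with 4.45 times. The narrowest gaps, from 1.23 to 1.26 times, were those of Cd24a 1437502_x_at, Cd83, Fcrl1 1425063_at and Cd40 1449473_s_at. Replicate 1 was also the higher for 7 of 10 B cell receptor signalling genes (median gap 0.76), 7 of 8 MHC class II genes (0.92), 5 of 6 other Ms4a genes (0.97), 4 of 4 Fc receptor genes (1.46), both CD8 genes (1.47) and 4 of 6 monocyte and macrophage genes (0.98). Among the exceptions, Cd79a, which carries the signal of surface immunoglobulin inward, read 3.51 on replicate 1 and 6.73 on replicate 2, and the adaptor Blnk read 9.63 and 12.9. The T cell receptor subunit Cd3e read 0.186 and 6.42, and 2 of 13 T cell identity genes were higher on replicate 1. The part of these differences in the size of the rise was not tested.

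**Figure D3:**
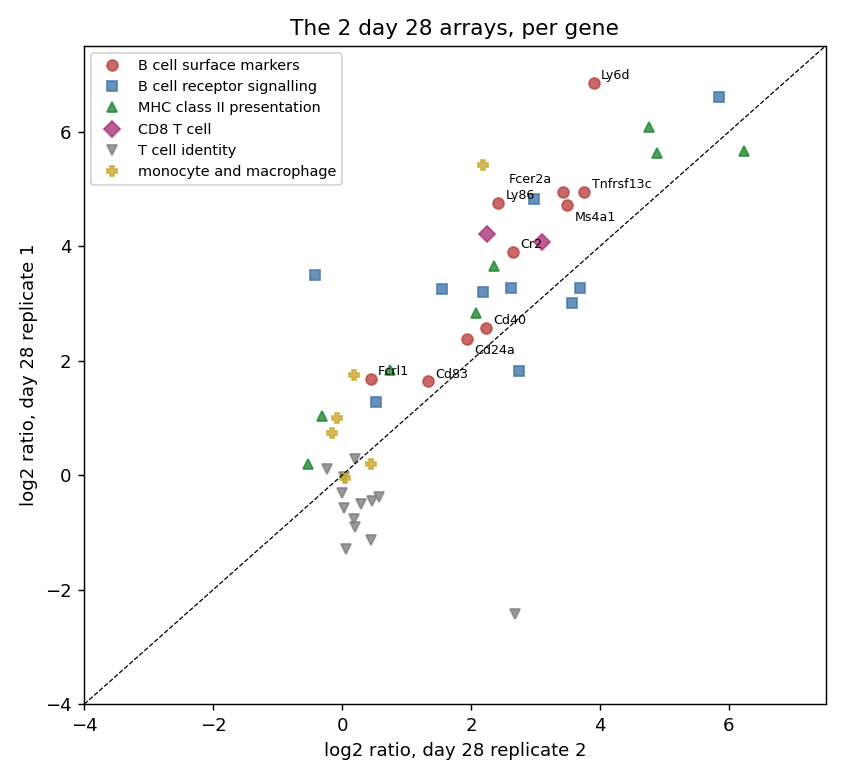
Log2 ratio per gene, as the mean over its tested probe sets, on day 28 replicate 1 (y axis) against day 28 replicate 2 (x axis), with equality dashed. All 10 B cell surface genes (red circles, named) lie above the line, whereas 2 of 13 T cell identity genes do.

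In the pathways around these surface proteins, signalling and presentation genes rose too. Of 10 tested B cell receptor signalling genes, 5 rose over naive and 7 over day 7 at day 28. Of all genes tested, 0.409% and 0.537% were called higher. In either comparison 0 of the 10 fell, where 0.0511% and 1.28% of all genes were called lower. Medians were 3.38 and 3.12. The gene lists were chosen with earlier results of these data known, so their gaps to all genes are no independent support. Cd79b, the partner chain of Cd79a, rose by 6.09 ± 0.43 over naive (limma adjusted p = 0.00428). Blnk had 4.87 ± 0.31 (limma adjusted p = 0.00428) and the phospholipase Plcg2 had 3.76 ± 0.34 (limma adjusted p = 0.00936). Blnk read below 1 on every naive and day 7 array. Plcg2 reached 1 there only on day 7 replicate 2 (1.13), and the called Syk probe sets only on naive replicate 1 (1.19 and 1.145). Blnk, Plcg2 and Syk thus passed the filter on low values only with their high day 28 arrays. Their p-values and their part of these counts support nothing. Cd22, an inhibitory receptor, rose by 5.55 ± 0.64 over naive (adjusted p = 0.0162), but its gap to day 7 did not pass (2.74 ± 0.64, adjusted p = 0.0957). Of 8 MHC class II presentation genes, 5 rose in each comparison (medians 3.14 and 2.80), led by the invariant chain Cd74 with 7.61 ± 0.57 over naive (adjusted p = 0.00428). Of 9 B cell transcription regulators, 2 rose over naive, Irf8 (3.83 ± 0.37, adjusted p = 0.00954) and Spib (2.78 ± 0.41, adjusted p = 0.0496), with a median of 1.003. Outside day 28, the called Irf8 probe set reached 1 only on day 7 replicate 1 (1.064). It thus passed the filter on low values only with its high day 28 arrays. Its p-value and its part of this count support nothing. Another Irf8 probe set had 0.78 ± 0.38 (adjusted p = 0.884). Pou2af1, a coactivator of Oct factors, rose at day 7 (2.77 ± 0.45, adjusted p = 0.0401) and did not pass at day 28 (2.37 ± 0.50, adjusted p = 0.199). The best of 3 Ebf1 probe sets had 1.54 ± 0.30 at day 28 over naive (adjusted p = 0.146), and the Pax5 probe set was not tested.

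Of 9 tested genes of CD40 and NF-kB signalling, 0 passed in any comparison by limma (at an unadjusted p under 0.05, 1 was higher in each comparison and 1 lower at day 28 than day 7), with a median of 0.32 at day 28. Cd40lg, the ligand of CD40 made by helper T cells, was not tested and differed by 0.11. Tnfrsf13b, which encodes TACI, another BAFF receptor, had 0.87 ± 0.77 (adjusted p = 0.998), and Tnfsf13b, which encodes BAFF itself, was not tested (-0.22). Of 3 tested genes of the Cr2 and complement group, 0 passed at day 28 against naive by limma, and 0 at an unadjusted p under 0.05; Cd81, a partner of CD21, had -0.58 ± 0.68 (adjusted p = 0.998). Cd180, which encodes the RP105 partner of Ly86, was not tested and differed by 0.72. Of 6 other Ms4a family genes, 0 passed at day 28 by limma, and 0 were past an unadjusted p under 0.05 against naive. Ms4a6d had 3 tested probe sets, of which 1 rose at day 7 (2.44 ± 0.43, adjusted p = 0.0466). Of 4 Fc receptor genes, Fcrla, a B cell relative of Fcrl1, rose over day 7 by 1 probe set (2.74 ± 0.48, limma adjusted p = 0.0439). Its other tested probe set had 1.80 ± 0.52 (adjusted p = 0.152) and did not pass. Fcgr2b, the inhibitory Fc receptor, had 3.30 ± 0.57 over naive by its best probe set (limma adjusted p = 0.0955). Outside day 28, the tested Fcrla probe sets reached 1 only on naive replicate 3 (1.27 and 1.60). This Fcgr2b probe set did so only on day 7 replicate 3 (1.25). These Fcrla and Fcgr2b probe sets passed the filter on low values only with their high day 28 arrays, so their p-values are no independent support.

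**Figure D4:**
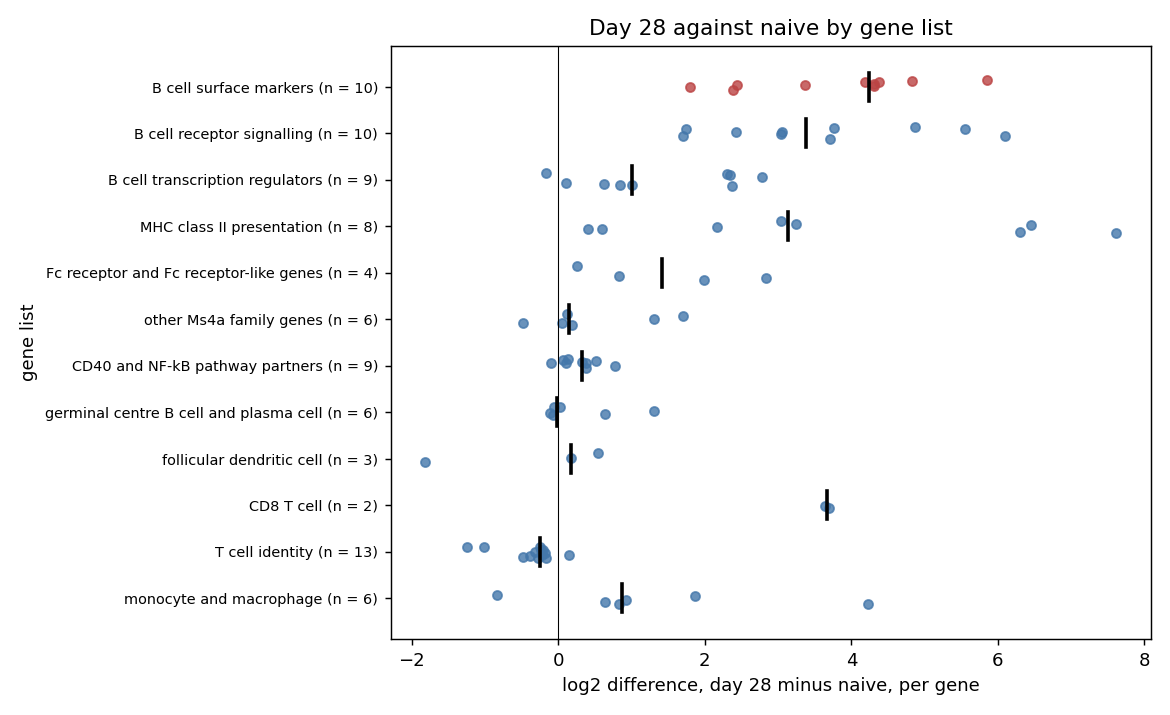
Log2 difference of day 28 minus naive (x axis) for each gene, as the mean over its tested probe sets, in 12 gene lists (y axis, with the number of tested genes); black bars are medians. The B cell surface genes have a median of 4.24, MHC class II genes 3.14, CD40 and NF-kB partners 0.32 and T cell identity genes -0.25.

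Markers of other cell types were set beside the B cell surface genes. Of 13 T cell identity genes, 0 passed in any comparison by limma. At an unadjusted p under 0.05, 0 differed at day 28 from naive, 1 was higher at day 28 than day 7 and 2 were lower at day 7 than naive. Their mean log2 ratio ranged from -0.30 to 0.75 in naive cells, -0.76 to 0.70 at day 7 and -0.64 to 0.38 at day 28. By these ranges the mean of the T cell identity genes varied between arrays in every group. Among single genes, Cd3e read 1.07, 2.26 and 0.759 in naive cells. The CD8 coreceptor chains were high at day 28 as well. Cd8b1 rose over naive by 3.70 ± 0.35 (limma adjusted p = 0.00936) and Cd8a had 3.65 ± 0.55 (adjusted p = 0.0580), and both rose over day 7. Cd8b1 read below 1 on every naive and day 7 array. It thus passed the filter on low values only with its high day 28 arrays, so its p-values are no independent support. Another Cd8a probe set was not tested and stayed between 0.572 and 0.594 on every array. The mean log2 ratio of the tested Cd8a and Cd8b1 probe sets was -0.37 to -0.06 in naive cells, -0.22 to -0.08 at day 7 and 2.67 to 4.14 at day 28. Of 6 monocyte and macrophage genes, 0 passed by limma at day 28 against naive, where 2 had an unadjusted p under 0.05, both higher. Their mean log2 ratio was -0.64 to -0.06 in naive cells, -0.28 to 0.23 at day 7 and 0.44 to 1.51 at day 28, and the lysozyme gene Lyz2 read 43.0 and 4.57 on the day 28 arrays. Of 3 follicular dendritic cell genes, 0 passed at day 28 against naive by limma (1 was higher and 1 lower at an unadjusted p under 0.05), and the defining chemokine Cxcl13 was not tested. No marker was listed at 0, and the part of CD8 and monocyte genes in the result was not tested.

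The genes outside the 10 whose profile over the 8 arrays was most like their mean profile were Irf8 (Pearson correlation 0.99), Cd8a (0.99), H2-Eb1 (0.99), Glipr2 (0.98), H2-Ab1 (0.98), Mef2c (0.98), Cd8b1 (0.98), Syk (0.98), Ubn1 (0.98) and Ighv14-2 (0.98), out of 11777 probe sets compared. They are known for class II presentation (H2-Eb1 and H2-Ab1), for the coreceptor of cytotoxic T cells (Cd8a and Cd8b1), for B cell receptor signalling (Syk) and for immunoglobulin (Ighv14-2). These genes differed in the size of the change. At day 28 over naive Ighv14-2 rose by 5.13 on the log2 scale (limma adjusted p = 0.00838), whereas Glipr2 had 0.69 (adjusted p = 0.709) and Ubn1 0.80 (adjusted p = 0.619). With 8 arrays, of which 2 stand far from the other 6, high correlations carry no test.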

How the data were processed

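RNA was hybridised to 8 Affymetrix arrays. The deposited values are linear ratios. The submitters' processing notes name GCRMA without a version, and that each probe set was divided by its median was inferred here, since medians equal 1 (within 0.0015) in 47.9% of 22690 probe sets and exceed it in none; the divisor of the other probe sets is unknown. After removing 64 controls, probe sets that reached a ratio of 1 on 2 or more arrays were tested (13042 of 22626). The genome build is not given in the sources used here.

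Log2 ratios were fitted with limma 3.58.1 in R 4.3.3, with 1 mean per group over all 8 arrays and no covariate. P-values were two-sided and adjusted by Benjamini-Hochberg across the tested probe sets, with a threshold of 0.05. The code was tested on simulated data. The number of arrays limits the precision. Genes were named through the platform annotation, by probe sets with 1 symbol (20380, of which 20351 matched RefSeq by gene ID); 691 had several symbols and 1555 none. A gene was called where at least 1 tested probe set passed and none passed the other way. Named genes were all 10 members, up to 4 called genes per list, a fixed set of markers and the 10 genes of most similar profile. Members and lists were chosen with earlier results of these data known. No label pairs same-numbered arrays of different groups, so replicate numbers were not used as pairs. Correlations between the deviations of same-numbered arrays from their group means ran from -0.36 to 0.17. For naive with day 7 arrays they were -0.23, -0.36 and 0.10. The day 28 deviations mirror each other: naive replicate 1 had 0.115 with day 28 replicate 1 and -0.115 with day 28 replicate 2. Correlations with day 28 arrays therefore cannot decide whether arrays were paired. Figures were drawn with matplotlib 3.10.9, and motifs were searched with Python 3.11.15.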

Additional observations from a re-analysis of the deposited data

How the results depend on the processing

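Across 234 refits of single probe sets in each comparison, 0 called values changed sign, and uncalled values did so in 7, 0 and 17; 72 lost their call at day 28 against naive, 47 at day 28 against day 7 and 13 at day 7 against naive, and 5, 3 and 0 gained one. The number called at day 28 against naive, 8, was 5 with no filter, 2 with trend and robust variance, 0 with only the 2 groups compared (13 at an unadjusted p under 0.05 by limma) and 1 at adjusted p under 0.01; leaving out an array gave 0 to 7. Against day 7 the number was 5 with trend and robust variance, 0 with the spike-in term and 3 at adjusted p under 0.01, and 1 to 10 without an array. At day 7 against naive it was 0 with no filter, quantile normalization, trend and robust variance, only the 2 groups compared, the spike-in term and adjusted p under 0.01, and 0 to 1 without an array; at an unadjusted p under 0.05 limma gave 1 to 4. With the filter on arrays outside day 28, chosen after seeing the data, the numbers were 6, 7 and 1 of 12 tested. The replicate block, which no label supports as a pairing, left 1, 1 and 0 calls. Medians over the genes ranged from 3.64 to 4.62, from 2.48 to 4.26 and from -0.022 to 0.28 without an array. The day 28 median over naive was 3.39 with quantile normalization, and the day 7 median was 0.31 with the probe set of largest SD. The causes were not tested. Ratios near background can understate changes in RNA, which was not tested here, and 2 day 28 arrays limit every estimate.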

Other observations

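Among 6 tested genes of plasma cells and germinal centre B cells, 0 passed in limma at day 28 against naive, and 0 were past an unadjusted p under 0.05; the median was -0.02. The Jchain gene, whose product joins secreted immunoglobulins, had a log2 difference of 1.31 (adjusted p = 0.955), with both day 28 arrays above all naive arrays. Of 2 NK cell genes, Gzma, a granule protease, had 1.46 (adjusted p = 0.519) and Klrd1 0.96 (adjusted p = 0.998). Among 2 tested genes listed for dendritic cells, the homing receptor Ccr7 had -2.97 (limma adjusted p = 0.551) and the growth factor receptor Flt3 -0.08 (limma adjusted p = 0.998). At day 7 against naive Ccr7 had -4.53 and Flt3 -0.21, and at day 28 against day 7 they had 1.56 and 0.13. None of these passed. Of 2 erythroid genes, 0 passed in limma, and 0 at an unadjusted p under 0.05. Ly6i, the tested relative of Ly6d, had -0.20 (adjusted p = 0.998), and Ly96, the MD-2 relative of Ly86, had -0.21 (adjusted p = 0.998).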
